A study of Mus musculus with 33 samples.

Results

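The 9 genes described here encode successive parts of beta-adrenergic cAMP signalling: the receptor Adrb1, the stimulatory G protein alpha subunit Gnas, the adenylyl cyclases Adcy5 and Adcy6, the catalytic subunit Prkaca and the regulatory subunit Prkar1a of protein kinase A (PKA), the phosphodiesterases Pde4d and Pde3a, and the anchoring protein Akap6. They were listed by gene symbol, with earlier results of these data known. All 9 were found among the 14862 gene rows of a table of read counts in 33 single mouse heart cells. The cells came from ventricles of mice carrying mAG-hGem, Azami Green joined to human geminin, a reporter protein that builds up from S phase until mitosis; every group carries this transgene. Sorting by its signal gave 10 mAG-hGem positive and 11 negative cells at embryonic day 14.5 (E14.5), and 6 positive and 6 negative cells at postnatal day 5 (P5). The strain, the promoter of the transgene and the number of animals are not given in the sources used here. Cells are named below by their titles: G for E14.5 positive, N for E14.5 negative, L1P or L2P for P5 positive and L1N or L2N for P5 negative cells.

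Binding of noradrenaline or adrenaline to the beta-1 receptor activates the stimulatory G protein, which turns on adenylyl cyclase. The cAMP that results binds the regulatory subunits of PKA and frees the catalytic subunits, phosphodiesterases break cAMP down again, and anchoring proteins hold PKA and phosphodiesterases beside their substrates. In the heart this pathway raises the rate and force of the beat through phosphorylation of calcium channels, phospholamban, the ryanodine receptor, troponin I and myosin binding protein C. The series concerns Ect2, a guanine nucleotide exchange factor for RhoA that is needed for cytokinesis, and the 9 genes are therefore also set beside Ect2 cell by cell.

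Each sample is 1 cell and no animal is named, so a group counts as 1 sample. No test between groups was possible, no p-value is given, and the values have no replicate check. Levels are CPM, counts per 1000000 counts of the cell. Group levels come from summed counts, and their 95% exact Poisson intervals, like the exact binomial intervals of ratios, cover counting error only. Total counts per cell ran from 2.545 to 38.47 M (M is 1000000 counts), with a median of 12.81 M. The labels call all cells cardiomyocytes, but the summed CPM of 13 cardiomyocyte markers was the highest of 6 cell type lists in only 25 cells: 10 of the 10 positive and 10 of the 11 negative cells at E14.5, then 5 of the 6 positive and 0 of the 6 negative cells at P5. That sum ranged from 15660 to 47090 CPM in E14.5 positive, 17600 to 50540 in E14.5 negative cells. At P5 it was 115.5 to 120700 CPM in positive and 0.967 to 3293 CPM in negative cells. Endothelial markers led in P5 positive cell L2P12, with 13420 CPM against 115.5 CPM of cardiomyocyte markers, and in 5 P5 negative cells. Over the 7 endothelial markers the sums were at most 26.1 CPM at E14.5, 0 to 13420 CPM among positive and 318 to 32200 CPM among negative cells at P5. The defining endothelial gene Cdh5 had no count at E14.5. Fibroblast and mural markers led in E14.5 negative cell N10, with 46730 CPM, and in P5 negative cell L2N12, with 19300 CPM. Cardiomyocyte markers summed to 738.4 CPM in L2N12 but to 24730 CPM in N10, within the range of the other E14.5 negative cells. N10 thus held both sets of markers. The part of cell type in the differences that involve P5 negative cells cannot be told apart from that of the geminin signal.

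On mm10, with gene models from GENCODE M21, Prkaca lies at chr8:83972993-83996443 on the plus strand and Prkar1a at chr11:109649405-109669656 (plus). Adrb1 spans chr19:56722199-56733113 (plus), Gnas chr2:174284320-174346744 (plus), Adcy5 chr16:35154877-35305738 (plus) and Adcy6 chr15:98589973-98610076 (minus). Pde4d spans chr13:108449948-109953461 (plus), Pde3a chr6:141249269-141507448 (plus) and Akap6 chr12:52699383-53155599 (plus). On the opposite strand Gnas overlaps Gm20721 and Nespas, Adcy6 overlaps Gm29331, and Pde3a overlaps Gm28523. Whether counting used strand is not given in the sources used here, so reads of these pairs cannot be told apart.

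The 250 bases before the RefSeq transcription start (GRCm38.p6) are shown for the genes with the steadiest differences below: Prkaca, higher at P5, Adcy5, higher in E14.5 positive cells, and Akap6, without a count in P5 negative cells. Capitals mark TGACG, the core of the cAMP response element, or CGTCA where it lies on the other strand. All are written 5′ to 3′ on the gene's own strand and hold no exonic base.
Prkaca, chr8:83972728-83972977, plus strand: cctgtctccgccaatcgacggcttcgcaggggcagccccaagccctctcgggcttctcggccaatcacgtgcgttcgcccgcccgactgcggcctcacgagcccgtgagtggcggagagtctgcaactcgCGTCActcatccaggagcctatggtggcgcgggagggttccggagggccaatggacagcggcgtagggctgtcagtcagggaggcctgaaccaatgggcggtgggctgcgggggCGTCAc
Adcy5, chr16:35154614-35154863, plus strand: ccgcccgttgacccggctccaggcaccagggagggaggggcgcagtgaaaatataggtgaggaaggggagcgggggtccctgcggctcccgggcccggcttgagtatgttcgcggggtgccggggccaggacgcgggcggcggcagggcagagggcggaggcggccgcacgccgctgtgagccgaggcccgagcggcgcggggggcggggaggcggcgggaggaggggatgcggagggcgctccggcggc
Akap6, chr12:52699133-52699382, plus strand: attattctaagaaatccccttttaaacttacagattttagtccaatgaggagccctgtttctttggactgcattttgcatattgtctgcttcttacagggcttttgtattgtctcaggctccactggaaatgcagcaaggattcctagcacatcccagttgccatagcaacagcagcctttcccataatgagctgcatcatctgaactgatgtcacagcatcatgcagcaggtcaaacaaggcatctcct
The Prkaca window held 2 cores, which begin 120 and 6 bases before the start, and the other windows shown held none. A further Prkaca window, before a RefSeq start farther downstream (chr8:83976633-83976882), also held none. Among 32851 windows of this length, 17.8% held the core on either strand and 1.5% the full element TGACGTCA, which contains the core on both strands. The full element was found in 1 of 6 windows of Prkar1a, beginning 49 bases before the start. A match is a string of letters in this window and nothing more.

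Adrb1, the beta-1 receptor and the main beta-adrenergic receptor of cardiomyocytes, was low throughout and had no count in many cells. In E14.5 positive cells it ranged from 0 to 38.96 CPM with a median of 0, and 4 of 10 cells had a count. In E14.5 negative cells it ranged from 0 to 23.7 CPM with a median of 0.563, and 6 of 11 had a count. In P5 positive cells it ranged from 0 to 26.0 CPM with a median of 0.0842. There cells L2P8 (26.0 CPM) and L2P7 (23.2 CPM) held nearly all of it, and the remaining 4 cells were at or below 0.0889 CPM. The 6 P5 negative cells were all without a count, which allows a share of cells with a count of up to 45.9% (exact binomial interval); the floor of 3 counts over that group is 0.0362 CPM. The summed levels were 4.18 CPM (3.87 to 4.51), 5.00 (4.69 to 5.33), 10.75 (10.09 to 11.44) and 0 CPM for positive then negative cells at E14.5 and positive then negative cells at P5. The ranges of neighbours in the order of levels overlapped throughout.

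Gnas, which couples the receptor to the cyclases, was by contrast abundant in every cell. It ranged from 1540 to 8701 CPM in E14.5 positive (median 2661), 2301 to 7442 in E14.5 negative (median 3348), 542 to 2342 in P5 positive (median 1342) and 1554 to 5323 in P5 negative cells (median 3081). The lowest values belonged to P5 positive cells L1P5 (542 CPM), L2P3 (936 CPM) and L2P8 (1064 CPM), which lay below every cell of the other groups. The endothelial-marker cell L2P12 was the highest of its group. The 4 ranges still overlapped.

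The cyclases Adcy5 and Adcy6, the main isoforms of the heart muscle cell, were distributed differently. Adcy5 ranged from 0.104 to 107 CPM in E14.5 positive cells (median 11.3) and from 0 to 14.5 CPM in E14.5 negative cells (median 0.402). With 10 CPM or more it was found in 5 of the 10 positive cells but 1 of the 11 negative cells, so the upper part of the positive group stood clear of the negative one while the lower parts overlapped. In P5 positive cells it ranged from 0 to 59.96 CPM (median 5.71), with L2P7 (59.96), L2P8 (15.3) and L2P10 (11.4) above 10 CPM. No P5 negative cell had a count. Adcy6 was spread more evenly: 0 to 77.9 CPM in E14.5 positive (median 31.7), 0.563 to 111 in E14.5 negative (median 50.6), 0 to 197 in P5 positive (median 25.6) and 0 to 41.2 in P5 negative cells (median 1.75). The top P5 positive value, in L2P8, supplied 76.5% of the group's Adcy6 counts.

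Prkaca, the PKA catalytic subunit alpha, was counted in all 27 cells of the first 3 groups and was highest in P5 positive cells. It ranged from 11.5 to 86.2 CPM in E14.5 positive (median 22.0), 0.167 to 95 in E14.5 negative (median 42.5), 27.9 to 197 in P5 positive (median 139) and 0 to 44.9 in P5 negative cells (median 9.51). Cells L2P3 (197 CPM), L2P7 (159), L2P8 (156) and L2P10 (121) exceeded every cell of the 3 other groups. The endothelial-marker cell L2P12 (69.0 CPM) and the shallowest cell L1P5 (27.9 CPM, 2.545 M counts) lay within the E14.5 ranges. Prkar1a, the regulatory subunit that keeps the catalytic subunit inactive without cAMP, was by contrast lowest in P5 positive cells in the sums. It ranged from 248 to 1442 CPM in E14.5 positive (median 1110), 802 to 2579 in E14.5 negative (median 1347), 424 to 748 in P5 positive (median 606.5) and 2.91 to 1119 in P5 negative cells (median 649). The P5 positive cells all lay below the E14.5 negative cells, a pair that differs in both age and geminin signal. The share of all genes apart in this way was not computed for that pair. The other pairs of groups overlapped.

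Pde4d, the phosphodiesterase that in cardiomyocytes acts near the beta-adrenergic receptors and the ryanodine receptor, was highest at E14.5. It ranged from 0 to 214 CPM in E14.5 positive (median 33.9), 0.0534 to 416 in E14.5 negative (median 56.2) and 0 to 76.2 in P5 positive cells (median 4.06). In P5 negative cells its 14 counts all lay in L2N10, at 0.967 CPM. Pde3a, the target of the inotrope milrinone in the heart, was nearly uncounted: 6 reads in cell N21 (0.483 CPM) and none in the other 32 cells. The floors of 3 counts per group lie between 0.0153 and 0.0362 CPM, so a level of Pde3a below that size was not detectable in these sums.

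Akap6, the large anchoring protein (mAKAP) of the nuclear envelope in muscle cells, was counted in all P5 positive and no P5 negative cells. It ranged from 3.28 to 149 CPM in E14.5 positive (median 28.8), 0 to 142 in E14.5 negative (median 22.9) and 0.0444 to 236 in P5 positive cells (median 16.6). Within the P5 positive group L2P7 (236 CPM) and L2P8 (83.1) stood at the top. Cells L2P12 and L2P10 held 0.0444 and 0.477 CPM, from 1 and 6 reads. Akap6 was the only member in which 1 pair of neighbours in the order of group levels, here E14.5 positive above P5 negative, did not overlap. For that pair, too, the share of all genes was not computed.

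**Figure D1:**
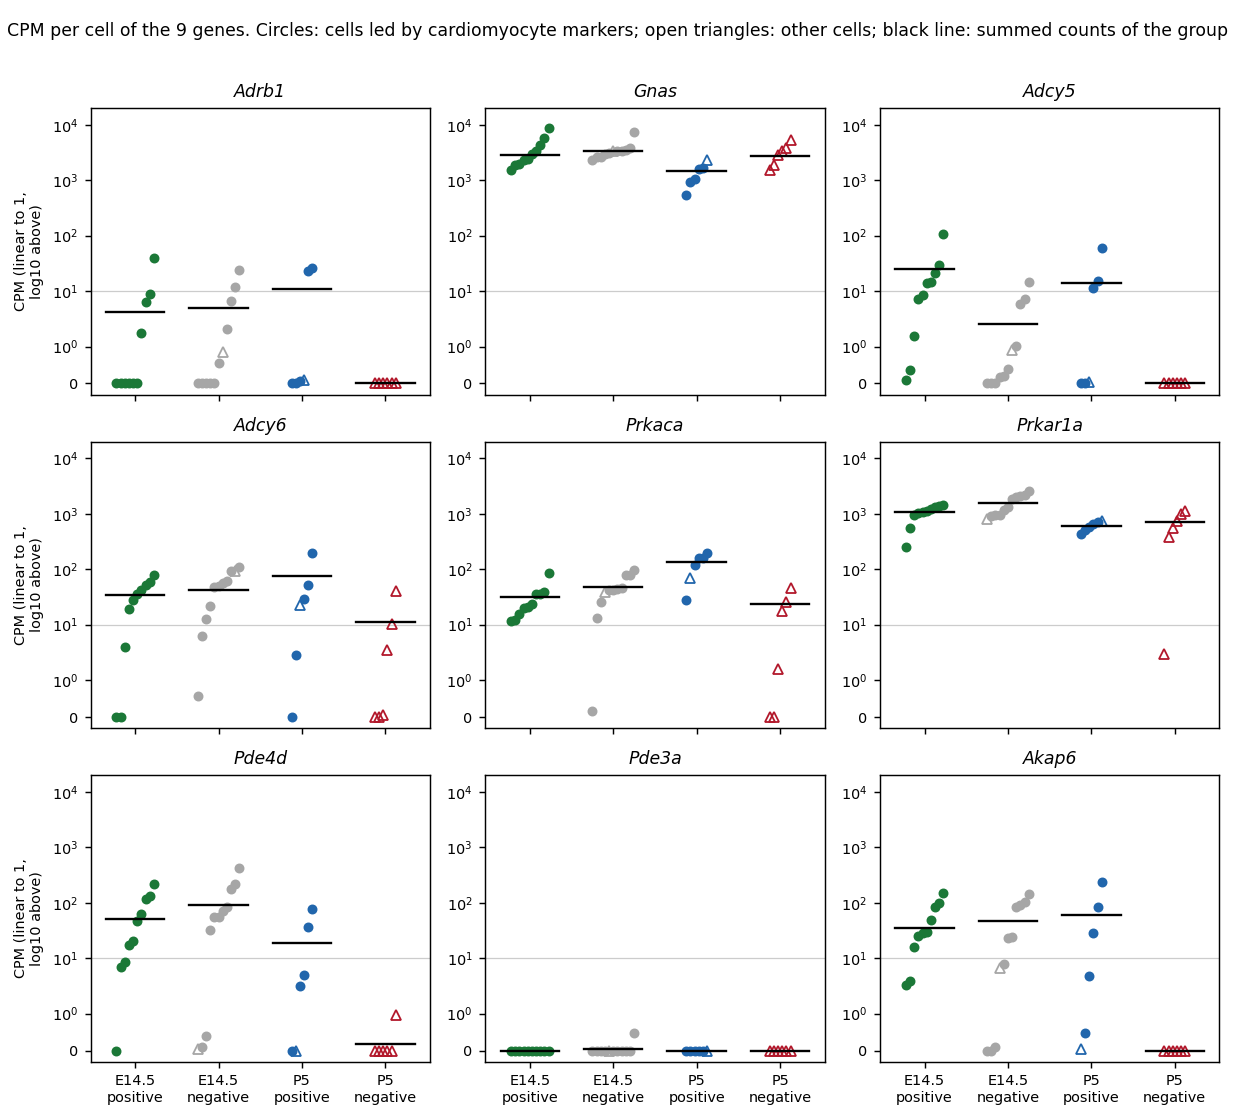
Level of each of the 9 genes in every cell, in CPM on an axis that is linear up to 1 and logarithmic above; each point is 1 of 33 cells, filled circles are cells led by cardiomyocyte markers, open triangles the others, and the black line is the level from summed counts. Gnas and Prkar1a are counted in every cell, Pde3a in 1 cell, and 4 of 6 P5 positive cells lie above all other cells for Prkaca.

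Levels of different genes were compared per kilobase of exon, where the length joins all annotated exons of all transcripts of a gene. This length was 11186 bases for Gnas and 4321 for Prkar1a, and which transcripts the cells use was not tested. In plain CPM Gnas was above Prkar1a in positive cells of both ages, so their order per kilobase depends on the length used. Whether these amplified counts scale with exon length was not tested. In E14.5 positive cells, taken as sums, Gnas stood at 255 and Prkar1a at 249 CPM per kilobase, followed by Prkaca at 12.8, Adcy6 at 5.06, Pde4d at 4.25, Adcy5 at 3.45, Akap6 at 2.34 and Adrb1 at 1.24. In P5 positive cells Prkar1a stood at 139.6, Gnas at 133.7, Prkaca at 53.7, Adcy6 at 11.04, Akap6 at 4.12, Adrb1 at 3.18, Adcy5 at 1.97 and Pde4d at 1.58 CPM per kilobase. In plain CPM the E14.5 positive sums of Pde4d (51.0), Akap6 (34.8) and Adcy6 (34.3) lay above that of Prkaca (31.9). Per kilobase of exon Prkaca ranked next after Gnas and Prkar1a at both ages, and the distance was smaller at P5. The order below it rests on a few cells: in the median P5 positive cell Prkaca was at 55.8, Adcy6 at 3.78, Akap6 at 1.12, Adcy5 at 0.795, Pde4d at 0.338 and Adrb1 at 0.0249 CPM per kilobase, so that Adrb1 came last. At E14.5 a positive cell held between 4 and 7 of the 9 genes at 10 CPM or more and a negative cell 4 to 8. At P5 a positive cell held 3 to 8 and a negative cell 1 to 4.

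Across age, P5 positive cells were set against E14.5 positive cells, which asks how the pathway differs between postnatal and embryonic cells that carry the geminin signal. Prkaca was 4.20-fold higher at P5 (133.7 against 31.9 CPM; log2 ratio 2.07, interval 2.02 to 2.12), and the ratio stayed between 1.85 and 2.59 when any single cell was left out. Adrb1 (log2 1.36) and Adcy6 (1.13) were also above 2-fold in the sums, but each rested on 1 cell: without L2P8 they were 0.10 and -0.47. Akap6 (0.81) was -0.05 without L2P7. On the lower side Pde4d was 2.69-fold lower (log2 -1.43), with a range of -2.73 without L2P3 to -0.74 without G25. Gnas (-0.93), Prkar1a (-0.84) and Adcy5 (-0.81) were lower by less than 2-fold, and Adcy5 turned to 0.17 without G29.

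By the rule of at least 2-fold with 1 CPM or more in the higher group, 8 of the 9 genes could be called and 3 were higher at P5, beside 32.2% of 10640 genes, and 1 was lower, beside 36.3%. When the difference also had to hold without any single cell, 1 member was higher (Prkaca), beside 14.9% of genes, and 0 were lower, beside 26.1%. In no member were the cells of the 2 groups fully apart, which held for 0.301% of genes in the higher and 0.827% in the lower direction. The median log2 ratio of the 8 members was 0.00 and that of all genes -0.16. The counts of members are thus close to, or below, the background. With DESeq2 size factors the median of all genes moved to 0.24 and the ratios of the members by about the same step, Prkaca to 2.45 and Akap6 to 1.20; 38.0% of genes were then higher and 30.1% lower. Over the 5 P5 cells led by cardiomyocyte markers, the log2 ratios were 2.28 for Prkaca, 1.76 for Adrb1, 1.42 for Adcy6, 1.22 for Akap6, -1.02 for Pde4d and -1.22 for Gnas, with -0.67 for the median gene.

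The contrast between the catalytic and the regulatory subunit was followed within each cell, a ratio chosen after the levels had been seen. For every 100 counts of Prkar1a, E14.5 positive cells held 0.829 to 8.26 counts of Prkaca (median 2.63) and E14.5 negative cells 0.0182 to 7.05 (median 2.72). In P5 positive cells the figure was 5.42 to 36.9 (median 23), and in P5 negative cells 0 to 8.26 (median 0.954). In that group 5 cells, with 36.9 (L2P8), 27.5 (L2P3), 24.7 (L2P7), 21.3 (L2P10) and 9.22 (L2P12), were above every E14.5 cell, and L1P5 (5.42) lay within the embryonic range. This ratio needs no scaling between cells. Prkacb, which encodes the catalytic subunit beta, showed the reverse of Prkaca. It ranged from 149.6 to 1037 CPM in E14.5 positive cells (median 224) and from 0 to 258 CPM in P5 positive cells (median 14.8). Prkaca accordingly made up 1.94% to 36.3% of Prkaca and Prkacb counts in E14.5 positive cells (median 7.57%) and 9.77% to 100% in P5 positive cells (median 92.0%). E14.5 negative cells spanned 0.0216% to 100% (median 13.7%), so this share overlapped between ages, and L1P5 at 9.77% was the P5 cell furthest from the others.

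**Figure D2:**
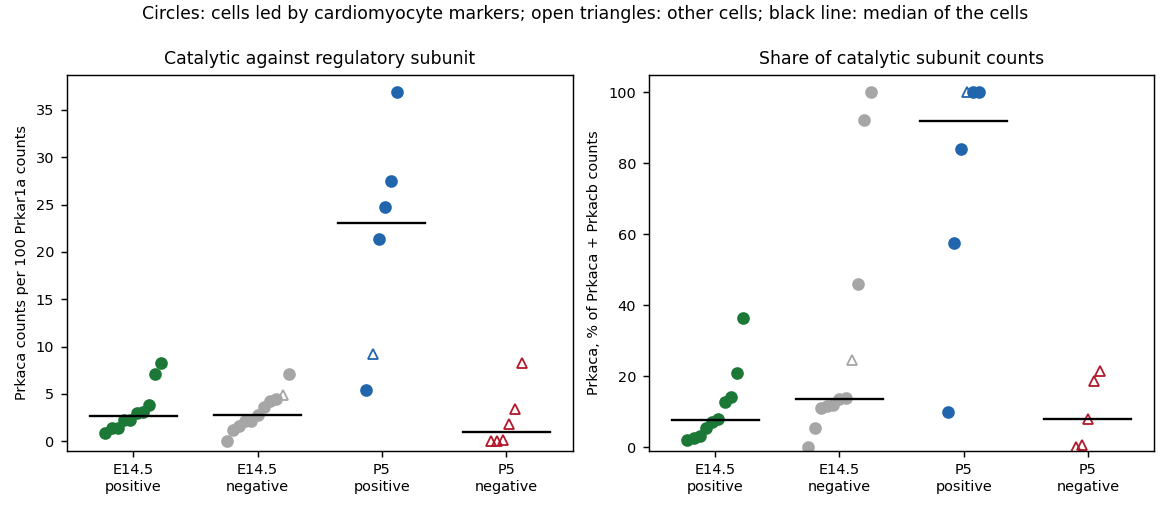
Left, counts of Prkaca per 100 counts of Prkar1a in each cell; right, Prkaca as a percentage of Prkaca and Prkacb counts; both axes are linear, circles are cells led by cardiomyocyte markers, triangles other cells, and the black line is the median. P5 positive cells run from 5.42 to 36.9 on the left, where E14.5 cells reach at most 8.26.

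At E14.5, mAG-hGem positive cells were set against negative cells to see how the pathway differs with the cell cycle signal. Adcy5 was the member that stood out, at 24.8 CPM in the positive group against 2.57 CPM in the negative one, which is 9.66-fold higher (log2 3.27, interval 3.14 to 3.41). Cell G29 held 55.7% of the counts of the positive group; without it the log2 ratio was 2.30, and without N25 it was 4.60. In 4 of 10 positive cells it lay above all negative cells, and the groups overlapped, as in every member; 0.234% of genes had all positive cells above all negative cells. The other 7 genes compared were all slightly lower in positive cells in the sums: Pde4d -0.81, Prkaca -0.56, Prkar1a -0.56, Akap6 -0.44, Adcy6 -0.30, Adrb1 -0.26 and Gnas -0.21 on the log2 scale. With equal weight for each cell, Adrb1 (0.43), Akap6 (0.15) and Gnas (0.01) had the other sign. By the 2-fold rule 1 of 8 members was higher, beside 18.9% of 10693 genes, and 0 were lower, beside 27.2%. With the condition that no single cell decides, 1 was higher, beside 10.2%, and 0 lower, beside 12.3%. The median of the members was -0.37 and that of all genes -0.18. Titles of the E14.5 cells carry numbers from 1 to 10 or from 21 to 30, whose meaning is not given in the sources used here. Adcy5 was higher in positive cells in both sets (log2 1.5 and 3.77), and Prkaca (-0.52 and -0.50) and Prkar1a (-0.14 and -0.68) were lower in both. The sets differed in sign for Adrb1 (2.80 and -4.39), Akap6 (1.45 and -1.93), Adcy6 (-1.25 and 0.30), Pde4d (0.13 and -1.22) and Gnas (0.20 and -0.66).

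At P5, positive cells were set against negative cells, a comparison of cells led mainly by cardiomyocyte markers with cells led by endothelial or fibroblast and mural markers. Tnnt2, the marker used to accept cells, was at 4216 CPM in the sum of P5 positive cells against 54.4 CPM in that of P5 negative cells. Akap6 was at least 1690-fold higher in positive cells, Adcy5 at least 392-fold and Adrb1 at least 297-fold, each set against 3 counts in the whole group because no P5 negative cell had a count. On the log2 scale these bounds are 10.72 (9.86 without L2P7), 8.61 (7.59 without L2P7) and 8.21 (6.96 without L2P8). Pde4d was 113-fold higher (log2 6.82, interval 6.06 to 7.69; 5.51 without L2P3 and 8.76 without L2N10). Adcy6 was 6.72-fold higher (log2 2.75; 1.15 without L2P8 and 3.97 without L2N10) and Prkaca 5.76-fold (log2 2.53; 3.48 without L2N7). Gnas (-0.88) and Prkar1a (-0.21) were slightly lower. By the 2-fold rule 6 of 8 members were higher, beside 33.2% of 10640 genes, and 0 were lower, beside 39.1%; 6 were also higher without any single cell, beside 20.8%, and 0 lower, beside 19.6%. Only Akap6 had all 6 positive cells above all negative cells, beside 1.55% of genes. That separation rests on 1 read in the endothelial-marker cell L2P12 and 6 reads in L2P10, against no count in negative cells. When cells were thinned to equal depth, Akap6 was counted in 4 of 5 P5 positive cells. The median log2 ratio of the members was 4.76, or 4.79 with the genes at 0 held at their bound, and that of all genes was -0.31.

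**Figure D3:**
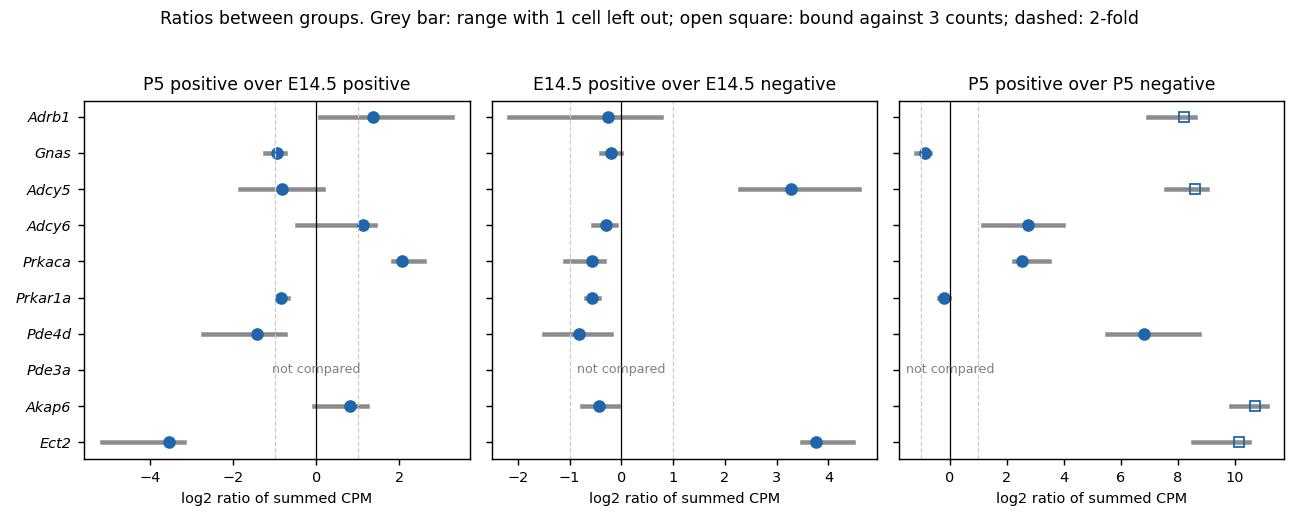
Log2 ratio of summed CPM between pairs of groups for the 9 genes and Ect2; dots are ratios, open squares are bounds set against 3 counts in the group at 0, grey bars the range with any 1 cell left out, and dashed lines mark 2-fold. Prkaca at P5 and Adcy5 in E14.5 positive cells stay past 2-fold over their whole bars, and Adcy6 crosses 0 between ages.

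Around the members, 71 further genes of the pathway were listed in 8 roles, of which 67 had a row. Between ages 52 could be compared: 15 were at least 2-fold higher at P5, 16 lower and 21 neither, beside the same 32.2% and 36.3% of genes. With any single cell left out 6 remained higher and 12 lower, beside 14.9% and 26.1%. The median log2 ratio was -0.49, and that of all genes -0.16. Among receptors and desensitisation genes 5 of 7 were higher and 0 lower, but only 2 stayed higher without any single cell. The log2 ratios of the others changed sign: Grk6 to -1.19 without L2P3, Arrb1 to -5.29 without L2P7 and Arrb2 to -3.77 without L2P12. Adra1b, the alpha-1B adrenergic receptor, was at 23.5 CPM in P5 positive against 1.11 CPM in E14.5 positive cells (log2 4.41; 3.61 without L2P8 and 9.45 without G1). Grk2, the kinase that desensitises the activated receptor and is listed in the table as Adrbk1, was at 41.0 against 0.702 CPM (log2 5.87). Its highest value, 122 CPM, was in the endothelial-marker cell L2P12, without which the log2 ratio was 4.41. Of the 1038 counts then left, 816 were in L2P8. The median of the 5 cells led by cardiomyocyte markers was 0.786 CPM, against 0.501 CPM in E14.5 positive cells.

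For phosphodiesterases 4 of 7 were higher and 0 lower, beside 32.2% and 36.3% of all genes. Only 2 of them, Pde2a and Pde10a, were kept when any single cell was left out. The log2 ratio of Pde7a went from 2.58 to -0.93 without L2P3, and that of Pde1c from 1.25 to 0.71 without L2P8. Pde2a, which cGMP stimulates to break down cAMP, was at 23.4 CPM at P5 and 0.114 CPM at E14.5 (log2 7.68), and L2P12 supplied 78.2% of its P5 counts; the log2 ratio was 5.89 without that cell. Pde10a was at least 679-fold higher, at 12.9 CPM against no count, but only L2P12 carried it, at 52.7 CPM: 2 counts were left without that cell, too few for a fold. For the kinase itself, Prkacb was 9.89-fold lower (log2 -3.31, and -4.11 without L2P7). Among the 6 PKA subunits and inhibitors 0 were higher and 3 lower, of which 2 stayed lower without any single cell. Of 9 anchoring proteins 0 were higher and 4 lower, also without any single cell. Over all genes 32.2% were higher and 36.3% lower, and without any single cell 14.9% and 26.1%, so lower genes were the more common there too. Akap10, which binds both types of regulatory subunit, was at log2 -3.88 (-5.06 without L2P3). Popdc3, a cAMP-binding Popeye domain protein of striated muscle, was at log2 -3.06 (-4.46 without L2P7). Tnni3, cardiac troponin I and a PKA substrate, was at 2392 against 477 CPM (log2 2.33); it is also 1 of the 13 cardiomyocyte markers. Of the 7 substrates, 2 were higher, 1 lower and 4 neither. Without any single cell 1 stayed higher, which was Tnni3, and 0 stayed lower.

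**Figure D4:**
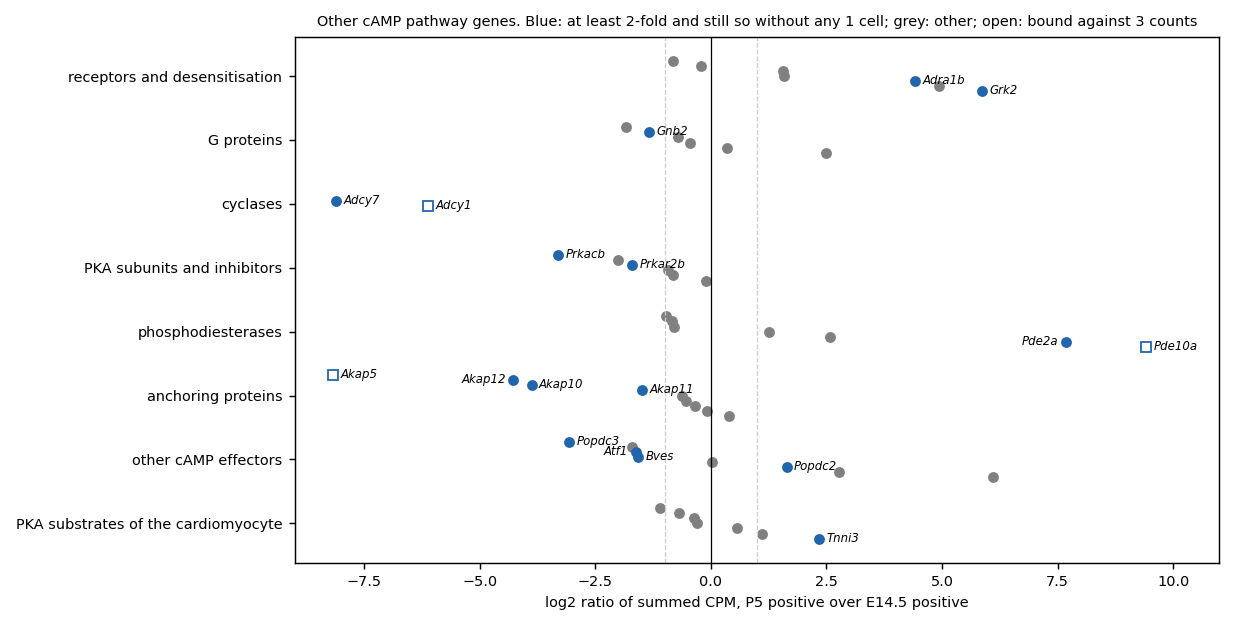
Log2 ratio of summed CPM, P5 positive over E14.5 positive, for the 52 other pathway genes compared, by role; blue points are at least 2-fold apart also without any 1 cell, grey points are not, and open squares are bounds against 3 counts. PKA subunits and anchoring proteins have no blue point to the right of 0, and receptors and phosphodiesterases none to the left. By the rule for blue points, 14.9% of all genes are higher and 26.1% lower. Pde10a is drawn in blue although only 2 counts are left without L2P12.

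Between E14.5 positive and negative cells 54 of the listed genes could be compared, of which 9 were higher in positive cells, 13 lower and 32 neither, beside 18.9% and 27.2% of genes. Without any single cell 4 were higher and 4 lower, beside 10.2% and 12.3%. The median was -0.29 (all genes -0.18). Grk5, a second receptor kinase of the heart, was 11.7-fold higher in positive cells (26.0 against 2.23 CPM) with 10 CPM or more in 5 of the 10 positive cells and 1 of the 11 others; its log2 ratio of 3.54 was 8.27 without N30, which held most counts of the negative group. Pkib, an inhibitor peptide of PKA, was 6.32-fold higher (log2 2.66; 1.52 without G29) and the phosphodiesterase Pde4b 5.04-fold higher (47.5 against 9.42 CPM; log2 2.33, and 1.69 without G29). Lower in the sums were Adra1b (log2 -3.35, with -8.39 without G1 and -2.54 without N25) and Pde7a (-3.06, with -6.38 without G1). The anchoring protein Akap7 was lower in the sums too (-2.09, with -1.11 without N23). Adra1b and Pde7a each had 10 CPM or more in 1 positive and 3 negative cells, Akap7 in 3 positive and 2 negative cells. Medians of positive against negative cells were 2.38 against 0.960 CPM for Akap7, 0.0208 against 0 for Pde7a and 0 in both for Adra1b. The 6 G protein genes and the 7 PKA substrates listed were all within 2-fold.

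In P5 positive against P5 negative cells 52 could be compared: 21 were higher, 15 lower and 16 neither, beside 33.2% and 39.1% of genes. When any single cell was dropped 17 and 6 were left, beside 20.8% and 19.6%. The 17 include Pde10a and Akap7, which kept only 2 counts each without L2P12 and L2P10, respectively. All 7 PKA substrates were higher in positive cells, among them Mybpc3, the myosin binding protein C (971 CPM; 1 count in the negative group; log2 16.30, interval 13.82 to 21.60). Ryr2, the ryanodine receptor, was at 166 CPM against 0.0241 CPM (log2 12.75, interval 10.90 to 15.80), and Cacnb2, a subunit of the L-type calcium channel, at 24.5 against 0.0121 CPM (log2 10.99, interval 8.51 to 16.29). Bves, another Popeye domain protein, was at least 3500-fold higher, the calcium-regulated phosphodiesterase Pde1c at least 1190-fold, and Popdc2 stood at 354 against 0.0362 CPM (log2 13.26, interval 11.71 to 15.54). On the other side the cyclase Adcy4 was at 112 CPM and Akap5 at 63.1 CPM in negative cells without a count in positive cells, at least 3430-fold and 1940-fold lower in the latter. Without L2N7 the log2 bounds of Bves (11.77), Pde1c (10.22) and Akap5 (-10.92) were 11.17, 9.62 and -8.92. As given above, P5 negative cells are not led by cardiomyocyte markers.

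Ect2 itself was at 482 CPM in the sum of E14.5 positive cells and 35.6 CPM in that of E14.5 negative cells; at P5 the sums were 41.4 CPM with the geminin signal and 0 without it. It ranged from 36.6 to 1332 CPM (median 500.5) in E14.5 positive cells. In E14.5 negative cells only N21 (239 CPM), N24 (121) and N10 (61.5) exceeded 10 CPM, and in P5 positive cells only L2P7 (219), L2P8 (24.2) and L2P3 (19.2) did. Relations to Ect2 are rank correlations (Spearman's rho) within a group, given as a description, since cells share their preparation and differ in depth. No pooled value is given because Ect2 separates the groups.

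Among the 10 E14.5 positive cells all 7 members counted in at least 5 cells had a rho below 0, from -0.68 for Adcy6 and -0.64 for Prkaca over -0.35 for Prkar1a, -0.25 for Adcy5, -0.22 for Pde4d and -0.16 for Akap6 to -0.04 for Gnas. In falling order of Ect2 (G5, G8, G6, G29, G25, G27, G1, G28, G10, G2), Adcy6 stood at 3.94, 19.5, 0, 0, 35.8, 51.3, 58.4, 42.5, 77.9 and 27.6 CPM. Prkaca stood in the same order at 12.1, 11.5, 20.5, 23.5, 35.55, 15.5, 39.4, 86.2, 20.2 and 35.95 CPM. Cells with more Ect2 thus tended to hold less Adcy6 and, less steadily, less Prkaca. Without G5 and G2, the cells farthest from the median Ect2, rho was -0.85 for Adcy6 and -0.43 for Prkaca, and Gnas (0.29) and Adcy5 (0.12) had the other sign. In the same 10 cells Ect2 had a rho of -0.65 with the summed cardiomyocyte markers and of -0.65 with the number of genes counted. Adcy6 had 0.56 and 0.53 with these, and Prkaca 0.53 and 0.42; their part in the relation was not tested.

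In the 11 E14.5 negative cells the relation had no common direction, with 4 of 8 members below 0 and 4 above, from -0.50 for Adcy6 to 0.45 for Prkaca. The cells with the most Ect2, N21, N24 and N10, held 0.563, 6.30 and 92.1 CPM of Adcy6 and 95, 41.4 and 39.0 CPM of Prkaca. For Adcy6 the value was -0.07 without N21 and N24, and -0.68 over the 10 cells led by cardiomyocyte markers, which leaves out N10. The other 8 cells had Ect2 at or below 0.178 CPM, so that most ranks rest on a few reads.

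In the 6 P5 positive cells all 8 members with counts had a rho above 0, from 0.09 for Prkar1a and 0.14 for Gnas to 0.77 for Prkaca and Akap6 and 0.94 for Adcy6. In falling order of Ect2 (L2P7, L2P8, L2P3, L2P12, L2P10, L1P5), Akap6 stood at 236, 83.1, 28.5, 0.0444, 0.477 and 4.72 CPM. Adcy6 stood in that order at 51.0, 197, 28.6, 22.7, 2.86 and 0 CPM, and Prkaca at 159, 156, 197, 69.0, 121 and 27.9 CPM. The cells with Ect2 above 10 CPM were thus the 3 highest for each of these genes. Without L2P7 and L1P5, the cells farthest from the median Ect2, 4 cells were left, and Gnas (-0.60) and Prkar1a (-0.40) turned below 0. In these cells Ect2 had a rho of 0.60 with the number of genes counted, 0.43 with the cardiomyocyte markers and 0.37 with total counts, and their part was not tested. The E14.5 positive and P5 positive cells had opposite signs for all 7 members counted in both when every cell was used. Without the 2 cells farthest from the median Ect2 of each group, Prkar1a was below 0 in both (-0.45 and -0.40) and Adcy5 above 0 in both (0.12 and 0.20), and the difference between ages was not tested. Adrb1, counted in 4 cells of each group, had -0.05 at E14.5 and 0.70 at P5.

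**Figure D5:**
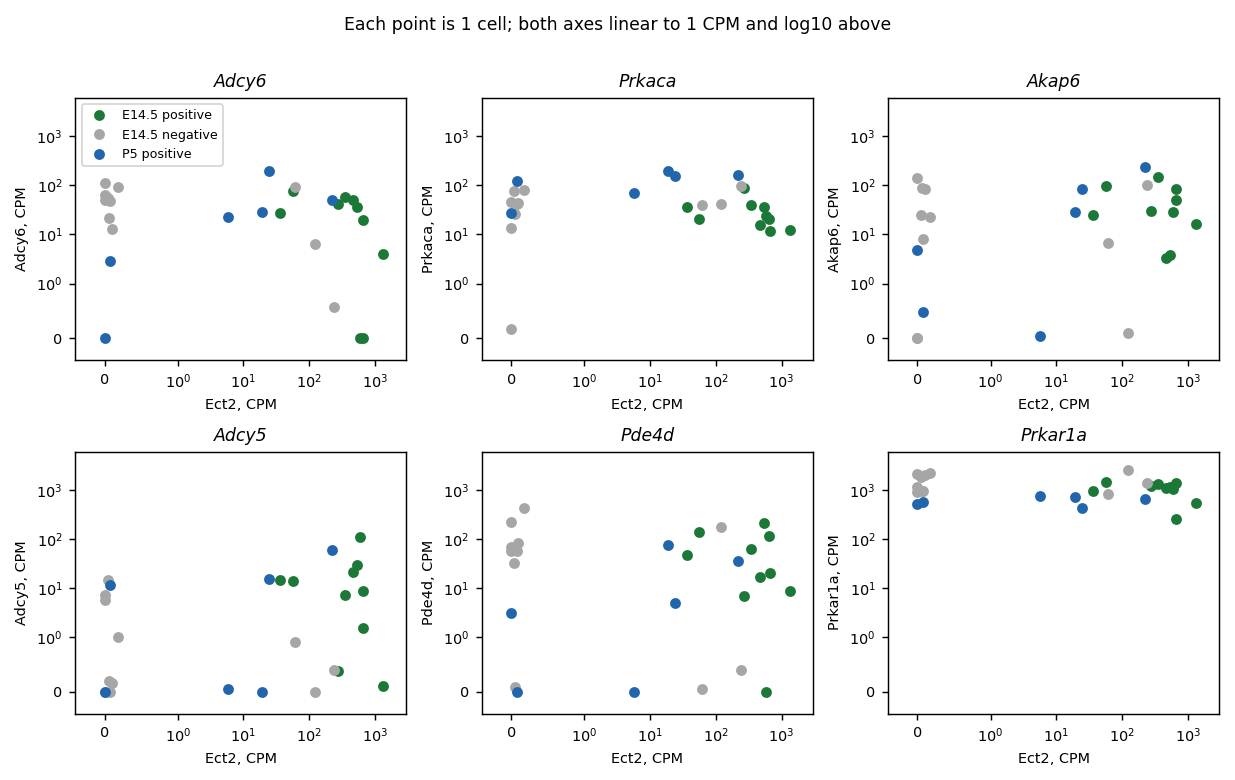
Level of 6 members against Ect2 in each cell of the E14.5 positive, E14.5 negative and P5 positive groups, in CPM on axes that are linear up to 1 and logarithmic above. In E14.5 positive cells Adcy6 is 0 to 19.5 CPM in the 4 cells with the most Ect2, and in P5 positive cells Adcy6 and Ect2 are high together.

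Correlations among the members themselves were mostly weak. Over the 21 E14.5 cells the 21 pairs of the 7 members with a count in at least 11 cells had rho from -0.22 to 0.52, with a median of 0.09; the highest was Prkaca with Prkar1a. For each of these members, the genes with the highest rho were also picked from 4503 candidates. A pick of the highest from so many gives high values even for unrelated genes. Their values therefore cannot be compared with those of the member pairs, which were not picked by rho. The closest to Prkaca were Vamp3 (0.77) and Capns1 (0.76), to Gnas Prex2 (0.79) and Pigp (0.75), and to Pde4d Thoc6 (0.76) and Baz1a (0.75). For Akap6 they were Tnrc18 (0.74) and Itch (0.72), for Adcy6 Igbp1 (0.72) and Riok2 (0.69), for Adcy5 Fbxo11 (0.70) and Guf1 (0.70), and for Prkar1a Ide (0.69) and Ndufaf7 (0.69). These values describe the 21 cells, which share their preparation and differ in depth.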

How the data were processed

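The deposited table holds raw read counts per gene symbol for 33 single cells, made by the authors after antisense RNA amplification and TruSeq library preparation, per the labels' protocols. The submitters' processing notes name CASAVA 1.8.2, STAR 2.4.0j, HTSeq 0.6.1p1 and mm10; their settings, the annotation and any molecular identifiers are not given in the sources used here. Amplified reads are not independent molecules. Of the nonzero values 12.3% are only 1 to 3 reads. No pair of cells correlated above a Pearson r of 0.867, so none was taken for a repeat. The table has 22 rows whose symbols a spreadsheet turned into dates; they stayed in the totals only.

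Counts were summed per group and divided by summed totals (Python 3.11.15, scipy 1.17.1), with Clopper-Pearson intervals for ratios. Genes with 1 CPM in the higher group were compared with 0.5 count added on each side. The calculation was tested on simulated counts. Scalings with edgeR 4.0.16 (TMM) and DESeq2 1.42.0 size factors, other weights, filters, folds and cell sets were alternatives. No count model was fitted, since each group is 1 sample. For shares of cells with a count, cells were thinned to 8671357 counts, which left out 6 of 33.

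The members, the 71 pathway genes and the lists of cardiomyocyte, endothelial, fibroblast and mural, red blood cell, macrophage and epicardial markers were chosen with earlier results of these data known. Besides the 9 members, pathway genes were named if at least 2-fold apart with 10 CPM in the higher group and so without any single cell, at most the 8 largest ratios per comparison. The genes most alike a member were the 2 with the highest rho over the 21 E14.5 cells among genes with 10 CPM in at least 11 of them. Red blood cell marker sums reached 2939 CPM in P5 negative cells and 0 elsewhere, macrophage sums 379 CPM at most and epicardial sums 3191 CPM at most.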

Additional observations from a re-analysis of the deposited data

Results flagged for a closer look

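For each member and Ect2 within a group of 6 or 10 cells, the gap between an extreme cell and the next was compared with Dixon's 95% limit. In all, 23 sets of values had counts. Normally distributed values pass this limit in about 1 of 20 sets. CPM of amplified single cells with many zeros are not so distributed, so that rate does not apply and the passes only mark uneven values. The limit was passed 10 times, each time by the highest cell. The group of 11 E14.5 negative cells was not tested.

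Among E14.5 positive cells, Adrb1 was at 38.96 CPM in G8, where the next cell had 8.91 CPM. Adcy5 was at 107.3 CPM in G29 and 29.6 CPM in the next cell. Prkaca was at 86.21 CPM in G28 and 39.4 in the next, and Ect2 at 1332 CPM in G5 and 664.5 in the next.

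Among P5 positive cells, L2P7 stood apart for Adcy5 (59.96 CPM, next 15.3), Akap6 (235.9 CPM, next 83.1) and Ect2 (218.8 CPM, next 24.2). L2P8 stood apart for Adcy6, at 197.3 CPM beside 51.0 CPM in the next cell. In P5 negative cells L2N10 stood apart for Adcy6 (41.17 CPM, next 10.2) and for Pde4d (0.967 CPM, with no count in the other 5 cells). With counts in 1 cell only, as for Pde4d there, the limit is passed whatever the value.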

How the results depend on the processing

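Adcy6 in P5 positive over E14.5 positive cells was the one called ratio to change sign: its log2 ratio was -0.30 between median cells and ran from -0.47 without L2P8 to 1.42 without L2P12 when a cell was left out. Of the other alternative ratios 210 stayed within the counting interval and 393 moved beyond it with no called ratio changing sign. The ratio of Prkaca between ages stayed between 1.85 and 2.63 in every alternative run, and that of Adcy5 between E14.5 positive and negative cells between 1.5 and 4.60. Members higher at P5 numbered 1 with equal weight for each cell and 1 by median cells in place of 3, 4 with DESeq2 factors, at 1.5-fold and over cells led by cardiomyocyte markers, and 1 to 4 with a cell left out. Members lower at P5 numbered 2 with equal weights, 4 at 1.5-fold and 2 over cells led by cardiomyocyte markers in place of 1, and 0 to 2 with a cell left out. Members higher in E14.5 positive than negative cells numbered 3 for title numbers 1 to 10 in place of 1. Members lower there numbered 1 without the filter on low values, 1 at 1.5-fold, 1 for title numbers 1 to 10 and 3 for 21 to 30 in place of 0, and 0 to 1 with a cell left out. Members lower in P5 positive than P5 negative cells numbered 1 with equal weights, 1 by median cells and 1 at 1.5-fold in place of 0, and 0 to 1 with a cell left out. The cause of these changes was not tested. No value over cells led by cardiomyocyte markers exists for the P5 groups, since no P5 negative cell is one. Thinning moved 2 of 36 shares of cells with a count. No paired analysis was possible because no test was made and cell numbers tie no cells together across groups. Depth limits what can be said of genes near the floor of 3 counts, such as Pde3a.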

Other observations

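Genes close to the members by function were also read cell by cell; they were chosen after their values were seen. Pde3b, the second member of the family of Pde3a, had counts in 9 of 10 E14.5 positive cells (0 to 82.1 CPM, median 27.1) and in 5 of 6 P5 positive cells (0 to 36.2 CPM, median 2.90), where Pde3a had none.

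Popdc2, a cAMP-binding membrane protein of striated muscle, ranged from 90.5 to 172 CPM in E14.5 positive cells (median 108). At P5 the 5 positive cells in which cardiomyocyte markers led ranged from 230.5 to 611 CPM (median 416), while L2P12 held 0.400 CPM. With L2P12 included the ranges of the positive cells overlapped between ages. E14.5 negative cells ranged from 35.15 to 276.6 CPM (median 99.4), and the highest, N7, lay above L2P10 (230.5 CPM). Crem, a transcription factor that binds the cAMP response element, was uneven at P5: L2P3 held 86.5% of the counts of the P5 positive group, at 720 CPM, and the median cell 8.6 CPM. Rapgef3, which encodes the cAMP sensor Epac1, was at 121 CPM in L2P12, which held 99.7% of the P5 positive counts.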
